A study of Mus musculus with 87 samples.

Results

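The 10 genes described here write, keep or remove methyl groups on DNA, or belong to Polycomb repressive complex 2 (PRC2), and they were followed through mouse liver regeneration. They were chosen by symbol: Dnmt1, Uhrf1 and Hells, Dnmt3a and Dnmt3b, Tet2 and Tet3, and Ezh2, Suz12 and Eed. The choice was made with earlier results of these data known, so counts of members called are descriptions and not an independent test. All 10 stood in the table of 37991 genes, each in 1 row, and all 10 were among the 15396 genes tested. Uhrf1 and Hells passed the filter on low values, a log2 RPKM above -1.5 in at least 1 liver, in 24 and 23 of the 80 livers, so they were tested only because of livers in which they were high. RPKM is the number of reads scaled to transcript length and to the mapped reads of the library.

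DNA methylation is copied after each round of replication by Dnmt1, which Uhrf1 brings to hemimethylated sites, with the remodeller Hells (also called Lsh) assisting in compact chromatin. Dnmt3a and Dnmt3b place methyl groups on unmethylated sites, and Tet2 and Tet3 oxidise 5-methylcytosine as a step to its removal. Ezh2 is the catalytic subunit of PRC2, which methylates lysine 27 of histone H3, and Suz12 and Eed are the core subunits it needs to be active. In adult liver most hepatocytes are quiescent and re-enter the cell cycle together after part of the organ is removed.

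Poly(A)-selected RNA of single livers was sequenced from male C57BL/6 mice, 12 to 14 weeks old at surgery. All mice were first entrained to a light and dark cycle with food in the dark hours, and the labels name no transgene or deletion. The operated mice had partial hepatectomy (PH, groups X) or laparotomy alone (sham, groups S) at zeitgeber time (ZT) 2, that is 2 h after the lights came on. Livers without surgery (groups C) were taken as the resting reference. C0 was taken at the hour of surgery (9 livers), C4 at ZT6 (3 livers) and C4W at 4 weeks (2 livers). Sham livers came at 1 h (S1, 6), 4 h (S4, 5), 10 h (S10, 3), 20 h (S20, 3) and 48 h (S48, 3). Post-PH livers came at 1 h (X1, 6), 4 h (X4, 3), 10 h (X10, 6), 20 h (X20, 6), 28 h (X28, 3), 36 h (X36, 6), 44 h (X44, 3), 48 h (X48, 5) and 72 h (X72, 3), and at 1 week (X1W, 3) and 4 weeks (X4W, 2). A 60 h post-PH group was not analysed here, nor were 3 further X4 livers and 1 of X4W, so X48 and X72 are not adjacent times of the study. By the study's methods the livers were collected in 3 periods, with 3 C0 livers in each. X28, S48, X44, X48, X72 and X1W came from the first period, S10, S20, X4W and C4W from the second, C4 from the third, and S1, S4, X1, X10, X20 and X36 from the first and second, as did X4 before 3 of its livers were left out. No source used here ties replicate numbers to periods. The methods also state that PH mice were operated 3 at a time and killed together, and sham mice operated 3 at a time. Livers of a group can thus share a session. Time and session then cannot be told apart, and p-values measure the spread between livers and not between sessions. A liver is a mixture of cell types, so fewer cells of a type and less RNA per cell cannot be told apart in any value below.

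The estimated depth was 12.2 M to 48.8 M reads per liver (median 26.7 M). The 8 hepatocyte markers summed to 26420 RPKM or more in every one of the 80 livers. C0 replicate 8 stood apart, with macrophage markers summing to 214 RPKM against 14.6 to 43.0 in the other C0 livers, and neutrophil markers to 51.4 RPKM against 0.356 to 4.88. Uhrf1 and Hells were at 0.208 and 0.194 RPKM in that liver, neither the highest of C0, and the part of those cells in the values was not tested. In C0 replicate 2 the summed M-phase genes (Mki67 and others) were at 5.95 RPKM, against 0.581 to 2.16 in the other C0 livers.

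On mm9, the build of the deposited table, the genes lie at chr9:20711650-20757317 (Dnmt1), chr17:56442744-56462909 (Uhrf1), chr19:39005405-39045541 (Hells), chr12:3806007-3914443 (Dnmt3a) and chr2:153475186-153513466 (Dnmt3b). Tet2 lies at chr3:133126643-133207354, Tet3 at chr6:83312367-83391672, Ezh2 at chr6:47480273-47545340, Suz12 at chr11:79806608-79847625 and Eed at chr7:97103166-97129493.

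The promoters are shown for the genes that rose most or share a short motif. The windows cover 250 bases before to 50 after the RefSeq start on GRCm38.p6, each read 5′ to 3′ on the gene's strand, and capitals mark an exact E2F motif, TTTCCCGC or TTTGGCGC, searched on both strands. E2F factors control many genes of the G1 to S transition. Dnmt1 is on the minus strand at chr9:20952574-20952873, Hells on the plus strand at chr19:38930740-38931039, Ezh2 on the minus strand at chr6:47594981-47595280, Suz12 on the plus strand at chr11:79992856-79993155 and the second start of Uhrf1 on the plus strand at chr17:56304063-56304362.
Dnmt1: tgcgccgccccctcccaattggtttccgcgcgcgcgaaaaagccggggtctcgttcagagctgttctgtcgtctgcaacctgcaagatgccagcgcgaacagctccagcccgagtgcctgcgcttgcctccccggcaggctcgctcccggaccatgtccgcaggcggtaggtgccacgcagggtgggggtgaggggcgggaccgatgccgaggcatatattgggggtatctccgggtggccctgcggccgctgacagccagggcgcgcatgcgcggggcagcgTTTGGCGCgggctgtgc
Hells: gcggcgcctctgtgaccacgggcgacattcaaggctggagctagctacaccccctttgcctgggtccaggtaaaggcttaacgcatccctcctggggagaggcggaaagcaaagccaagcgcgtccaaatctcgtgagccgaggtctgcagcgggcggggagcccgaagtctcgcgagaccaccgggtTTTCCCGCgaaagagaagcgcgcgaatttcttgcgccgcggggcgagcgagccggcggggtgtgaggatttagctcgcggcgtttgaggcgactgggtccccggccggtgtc
Ezh2: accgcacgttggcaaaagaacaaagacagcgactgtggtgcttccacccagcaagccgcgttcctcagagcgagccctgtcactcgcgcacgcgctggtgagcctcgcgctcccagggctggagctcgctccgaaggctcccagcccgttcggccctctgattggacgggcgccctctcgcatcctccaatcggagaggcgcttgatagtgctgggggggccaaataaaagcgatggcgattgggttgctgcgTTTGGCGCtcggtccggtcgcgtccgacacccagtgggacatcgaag
Suz12: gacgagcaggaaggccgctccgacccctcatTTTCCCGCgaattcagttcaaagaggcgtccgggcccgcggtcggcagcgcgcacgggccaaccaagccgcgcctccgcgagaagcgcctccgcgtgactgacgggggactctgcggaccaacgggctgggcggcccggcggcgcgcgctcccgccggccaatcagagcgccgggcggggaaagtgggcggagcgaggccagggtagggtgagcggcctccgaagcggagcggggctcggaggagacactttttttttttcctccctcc
Uhrf1: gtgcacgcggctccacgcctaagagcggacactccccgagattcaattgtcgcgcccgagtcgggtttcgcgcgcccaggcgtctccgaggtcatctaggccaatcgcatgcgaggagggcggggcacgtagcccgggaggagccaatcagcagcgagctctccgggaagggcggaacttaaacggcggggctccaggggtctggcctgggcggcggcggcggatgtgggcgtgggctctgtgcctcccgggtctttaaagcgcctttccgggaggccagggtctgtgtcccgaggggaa

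The 10 genes matched 15 RefSeq promoters, and 4 of the 15, 1 each of Dnmt1, Hells, Ezh2 and Suz12, held 1 of the motifs. The motif began 34 bases after the start in Dnmt1, 62 before it in Hells, 4 after it in Ezh2 and 219 before it in Suz12. Of all 32851 promoters of the same length, 514 (1.57%) held at least 1 of the 2. Both Uhrf1 starts, Eed, Dnmt3a, Dnmt3b, Tet2 and Tet3 had neither, which says only that these letters are not in these windows. Other motifs were searched too. TTTGAA (held by 17.9% of all promoters) was in windows of Dnmt1, Dnmt3b, Suz12 and Eed. CCAAT (37.4%) was in windows of Dnmt1, Uhrf1, Tet3, Ezh2, Suz12 and Eed. The GC box GGGCGG (35.7%) was in windows of Dnmt1, Uhrf1, Hells, Dnmt3a, Dnmt3b, Tet2, Tet3 and Suz12. The shown windows were 64.3 to 71.0% G and C, against a median of 52.7% over all promoters, and held 31 to 41 CpG sites against a median of 7. A match describes the letters and is not evidence of binding.

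In resting liver the PRC2 subunits Eed and Suz12 had the highest levels of the 10 and Uhrf1 and Hells the lowest. Per length, the C0 means (± SD over 9 livers) were 4.66 ± 0.812 RPKM for Eed, 4.26 ± 0.718 for Suz12, 1.32 ± 0.161 for Dnmt1 and 1.12 ± 0.158 for Tet3. They were 0.837 ± 0.285 for Tet2, 0.647 ± 0.067 for Dnmt3a, 0.633 ± 0.113 for Dnmt3b and 0.519 ± 0.0972 for Ezh2, and 0.121 ± 0.061 and 0.116 ± 0.0942 for Hells and Uhrf1. Neighbours in this order overlapped between livers, except that Suz12 lay above Dnmt1, and Ezh2 above Hells, in every liver. Uhrf1 in C0 rested on an estimated 3 to 44.9 reads a liver and Hells on 7 to 55.9. Within this group Tet2 ran from 0.395 to 0.641 RPKM in replicates 1 to 3 and from 0.811 to 1.32 in replicates 4 to 9.

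**Figure D1:**
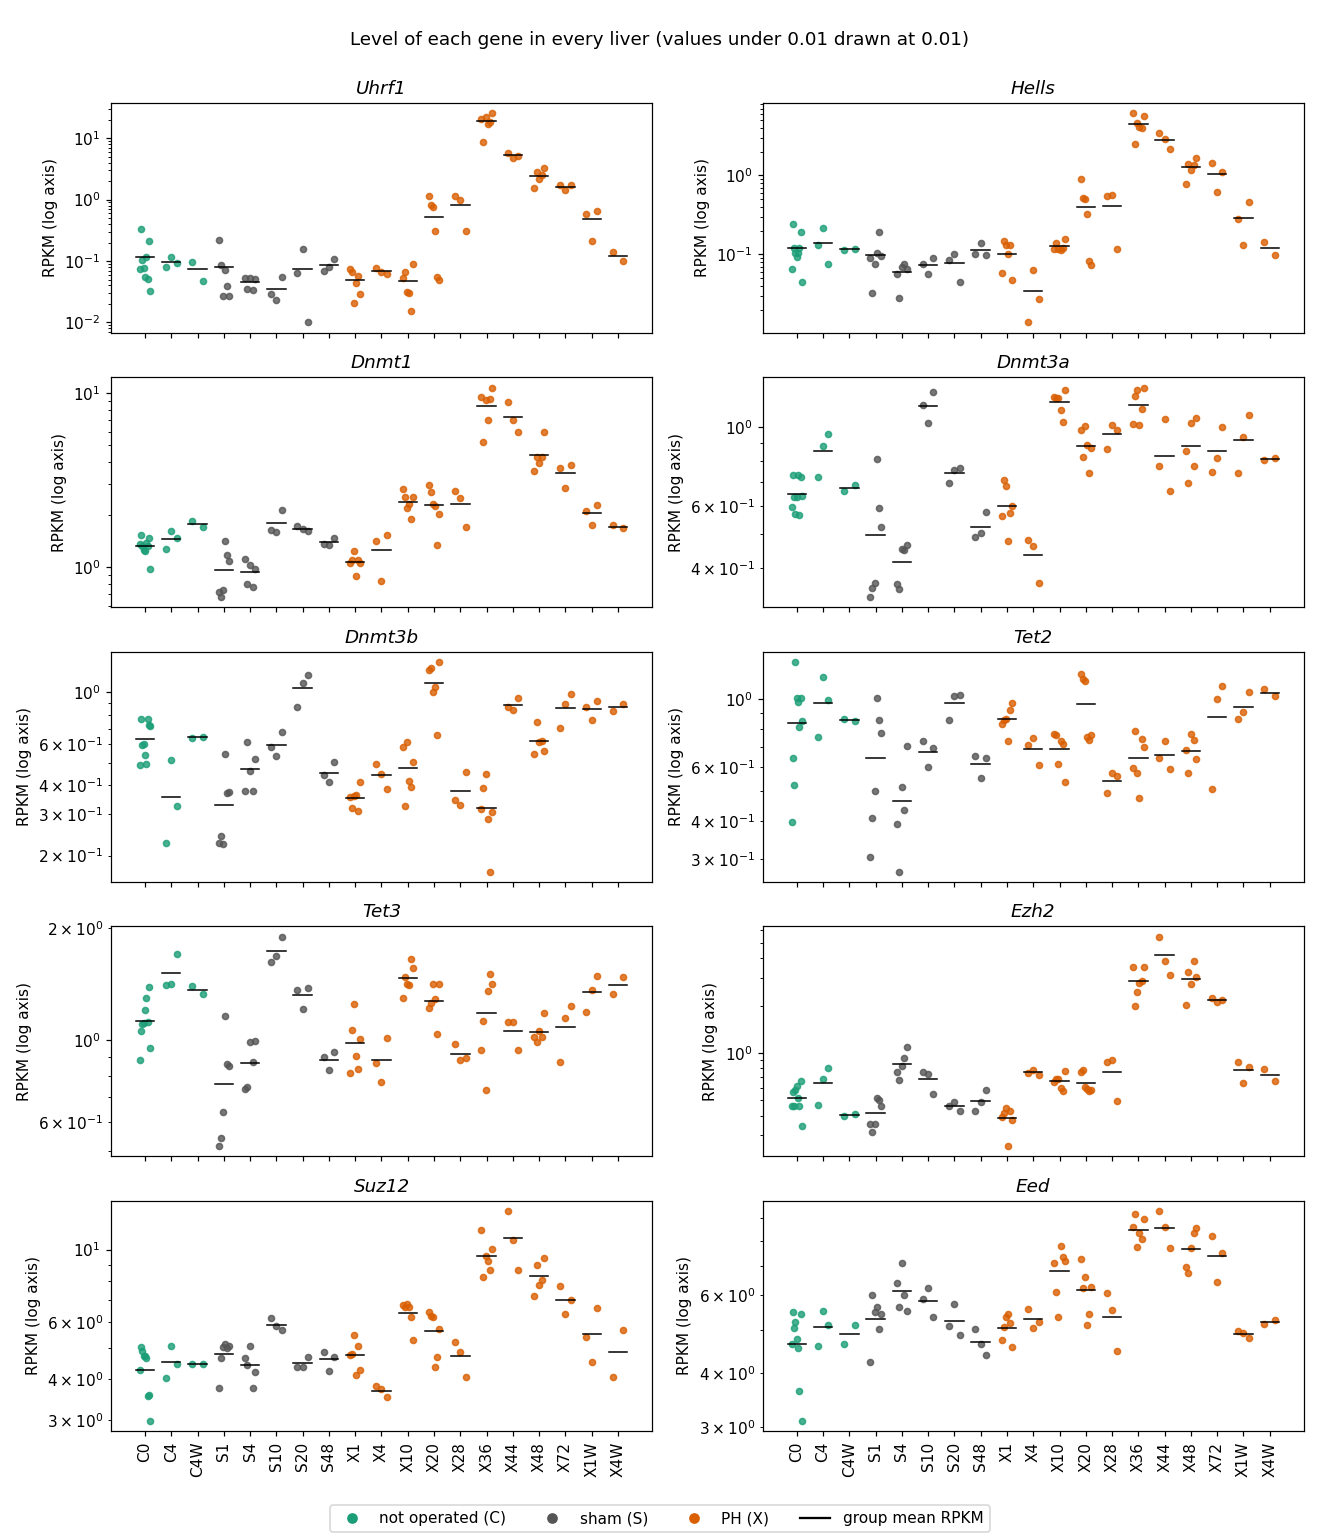
Level of each gene in every liver, as RPKM on a log axis, by group along the x axis (C, not operated; S, sham; X, PH; numbers are hours, W weeks). Points are livers and bars are group means; Uhrf1, Hells, Dnmt1, Ezh2, Suz12 and Eed are highest at X36 or X44, while Tet2, Tet3 and Dnmt3b are not.

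The comparison of X48 with S48 asks what removal of liver tissue added to surgery at the same hour of the day. The 3 genes of methylation maintenance and the 3 core PRC2 subunits were all higher in X48, as was Dnmt3a. A gene is called here when the limma test, Benjamini-Hochberg adjusted over the 15396 genes, gave an adjusted p under 0.05 with a log2 fold change beyond 0.5. By that rule 7 of the 10 were called, all higher, where 27.2% of all tested genes were called and 24.5% called higher. The list was chosen with earlier results known, so its excess over all genes is not an independent test. Uhrf1 and Hells, among the 7, passed the filter only through livers in which they were high. Elsewhere the share of all genes called counts both directions unless one is named. No share of all genes is given for groups that do not overlap, so such statements describe the named genes only. The median log2 fold change was 0.743 over the 10 genes and 0.274 over all tested genes.

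Uhrf1 was at 0.0682, 0.0808 and 0.107 RPKM in the 3 S48 livers and at 1.57, 2.77, 2.14, 2.56 and 3.28 RPKM in the 5 X48 livers. Every X48 liver was far above every S48 liver, and the log2 fold change was 2.98 ± 0.29 (SE; adjusted p = 1.90e-13). Fold changes throughout compare log2(RPKM + 0.25) values, so those of genes with low levels, Uhrf1 and Hells among them, come out too small. Hells was at 0.101, 0.14 and 0.0976 RPKM in S48 and 0.788, 1.4, 1.17, 1.36 and 1.68 RPKM in X48, a log2 fold change of 2.05 ± 0.25 (adjusted p = 2.13e-10). Again no liver of one group reached the other. Dnmt1, the maintenance methyltransferase itself, was at 1.36, 1.33 and 1.46 RPKM in S48 and at 3.56, 4.29, 3.96, 4.3 and 5.97 RPKM in X48. The groups were apart, with replicate 5 of X48 the highest, and the log2 fold change was 1.49 ± 0.18 (adjusted p = 2.29e-10).

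Ezh2 rose the most of the PRC2 subunits. It was at 0.426, 0.488 and 0.58 RPKM in S48 and 2, 3.25, 2.73, 3.83 and 3.04 RPKM in X48, with no overlap and a log2 fold change of 2.08 ± 0.15 (adjusted p = 1.19e-18). Suz12 was at 4.87, 4.25 and 4.69 RPKM in S48 and 7.23, 8.97, 7.8, 8.08 and 9.42 RPKM in X48 (0.81 ± 0.13, adjusted p = 7.05e-07). Eed was at 5.04, 4.65 and 4.4 RPKM in S48 and 6.95, 6.75, 7.71, 8.32 and 8.56 RPKM in X48 (0.67 ± 0.12, adjusted p = 4.05e-06). Both groups were apart for both genes, and the mean level of Ezh2 in X48 (2.97 RPKM) stayed below those of Suz12 and Eed (8.3 and 7.66 RPKM).

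The de novo and oxidising enzymes differed less. Dnmt3a was at 0.488, 0.504 and 0.577 RPKM in S48 and 0.855, 0.695, 1.02, 0.774 and 1.06 RPKM in X48, a log2 fold change of 0.54 ± 0.12 (adjusted p = 2.78e-04), just past the limit, and 0.48 without the replicate 5 livers. Dnmt3b, at 0.441, 0.413 and 0.502 RPKM in S48 and 0.542, 0.749, 0.612, 0.618 and 0.559 in X48, did not overlap either, yet its log2 fold change of 0.30 ± 0.15 missed the test (adjusted p = 0.0978). The values for Tet3 were 0.20 (adjusted p = 0.246) and for Tet2 0.10 (adjusted p = 0.715). Tet2 livers of both groups overlapped, between 0.553 and 0.769 RPKM.

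**Figure D2:**
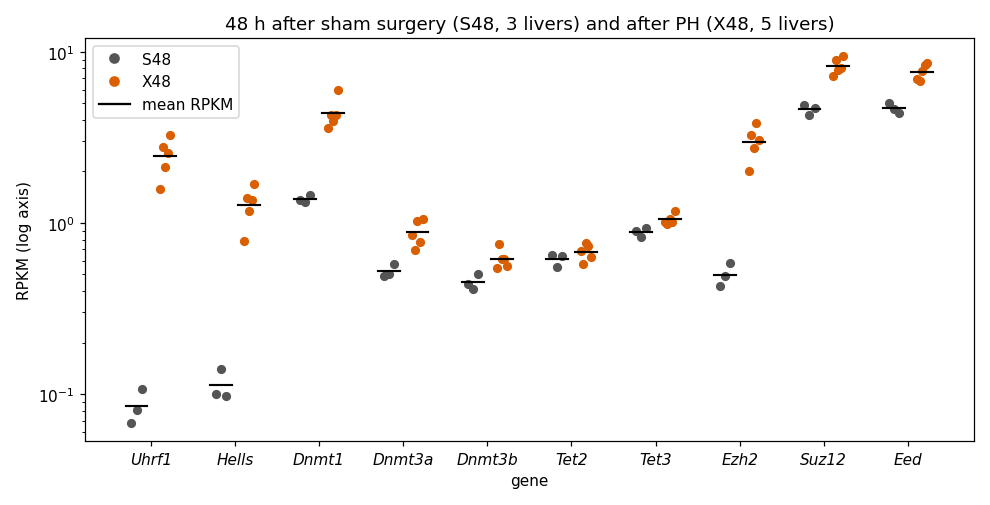
RPKM on a log axis of each gene in the 3 S48 and 5 X48 livers, with points for livers and bars for means. Uhrf1, Hells, Dnmt1 and Ezh2 show the widest gaps, and Tet2 is the gene whose groups overlap.

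The scaling between libraries set how many of the 7 calls stood. With every library multiplied to the same median over the tested genes, the median of all genes in this comparison moved by 0.375 on the log2 scale and the share of called genes that were higher went from 90.1 to 38.8%. Uhrf1 (2.62), Hells (1.71), Ezh2 (1.66) and Dnmt1 (1.04) were still called. Suz12 (0.34, adjusted p = 0.0207), Eed (0.20, adjusted p = 0.126) and Dnmt3a (0.18, adjusted p = 0.208) were not.

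Cell-cycle genes were higher in the same comparison. All 12 S-phase reference genes (Pcna, Mcm2 and others) were called higher in X48, with a median log2 fold change of 2.26, and all 10 M-phase genes, with a median of 5.73. The summed S-phase genes were at 15.0 to 19.5 RPKM in S48 and 64.6 to 118 RPKM in X48. Of markers of other cells, 0 of 8 lymphocyte, 0 of 8 macrophage, 0 of 6 neutrophil, 0 of 6 endothelial and 0 of 4 cholangiocyte genes were called. Of 6 stellate cell markers, 3 were higher, and their sum was 47.0 to 50.9 RPKM in S48 and 58.9 to 102 RPKM in X48. Of 8 hepatocyte markers 3 were lower, and the sum was 39630 to 48850 RPKM in S48 and 34480 to 39610 RPKM in X48. Of the erythroid markers 1 of 3 tested was lower, and of the hematopoietic precursor markers 1 of 3 tested was higher, with sums of 1.26 to 1.53 RPKM in S48 and 2.18 to 2.65 in X48. The defining T cell marker Cd3e averaged 0.0248 RPKM in X48, and the summed lymphocyte markers were lower there (0.506 to 1.52 RPKM) than in S48 (1.62 to 2.05 RPKM). What the stellate and precursor cells contributed to the rise was not tested.

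The post-PH course against C0 follows each gene over the times sampled. C0, X48 and X72 were taken at ZT2 and X36 at ZT14, an hour without a sham or unoperated group. Where the hour differs from that of C0, time after PH and hour of the day cannot be told apart. The same holds for the steps between X28 (ZT6), X36 and X44 (ZT22). The peak was at X36 for Uhrf1, Hells and Dnmt1 and at X44 for Ezh2, Suz12 and Eed, although X36 and X44 livers overlapped for all of these but Uhrf1. At X36 8 of the 10 were called, 7 higher and Dnmt3b lower. In that comparison 35% of all genes were called and 25.7% called higher. Uhrf1 and Hells are among the 7, and the limits given above for the list and for the filter on these genes hold here too. All comparisons with C0 share the same 9 control livers, so they are not independent of each other.

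Uhrf1 ran over 0.0329 to 0.326 RPKM (median 0.0775) in C0 and 8.5 to 25.5 RPKM (median 19.4) in X36, a log2 fold change of 5.66 ± 0.21 (adjusted p = 5.11e-33). From among the lowest of the 10 it became the highest by its mean, above Suz12 at 9.54 RPKM and Eed at 8.48 RPKM. Hells ran over 0.0453 to 0.24 RPKM (median 0.104) in C0 and 2.46 to 6.12 RPKM (median 4.33) in X36 (3.64 ± 0.18, adjusted p = 6.95e-28). Dnmt1 ran over 0.974 to 1.54 RPKM (median 1.33) and 5.22 to 10.7 RPKM (median 9.2) (2.45 ± 0.13, adjusted p = 4.27e-26). No X36 liver fell within the C0 range for any of the 3.

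Ezh2 ran over 0.346 to 0.662 RPKM (median 0.518) in C0 and 1.98 to 3.53 RPKM (median 2.83) in X36 (2.00 ± 0.11, adjusted p = 5.53e-25). Suz12 and Eed rose by 1.13 ± 0.10 and 0.85 ± 0.09 on the log2 scale, and Dnmt3a by 0.65 ± 0.09. The groups were apart for each of the 4. Dnmt3b ran over 0.49 to 0.769 RPKM (median 0.602) in C0 and 0.171 to 0.447 RPKM (median 0.311) in X36, lower in every liver (-0.64 ± 0.11, adjusted p = 6.60e-07). Tet2 and Tet3 overlapped between the groups, with log2 fold changes of -0.25 and 0.04 (adjusted p = 0.123 and 0.781). Scaled to the same median, Dnmt3a (0.35) and Eed (0.48) fell short of the limit, and Tet2 passed it on the lower side (-0.52, adjusted p = 0.000257).

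Replicate 2 of X36 was the lowest of the 6 for Uhrf1, Hells, Dnmt1, Ezh2 and Suz12, with Uhrf1 at 8.50 RPKM and the others at 16.9 RPKM or more. Its summed S-phase genes were also the lowest, at 112 RPKM against 208 to 313 RPKM. Eed was the exception, since 9.21 RPKM in this liver was the highest of X36. Taken apart, replicates 1 to 3 and replicates 4 to 6 gave Uhrf1 log2 fold changes of 5.50 and 5.82, and the same 7 genes were called higher in each set. Dnmt3b was past the limit in replicates 4 to 6 (-0.81) and not in replicates 1 to 3 (-0.47).

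**Figure D3:**
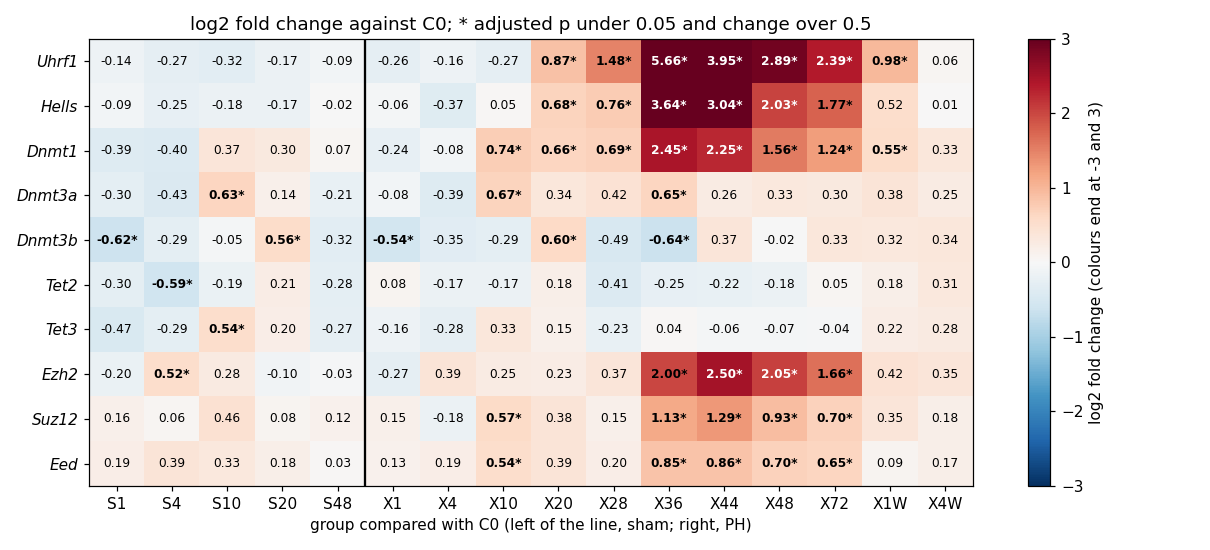
Log2 fold change of each gene (rows) in each sham and PH group (columns) against C0, written in each cell, with red higher, blue lower and an asterisk for called changes. Red cells fill the X36 to X72 columns for Uhrf1, Hells, Dnmt1, Ezh2, Suz12 and Eed.

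The rise was steepest between X28 and X36. In that step 6 of the 10 were called higher, where 18.1% of all genes were called and 15.1% called higher: Uhrf1 (4.18 ± 0.28), Hells (2.88 ± 0.24), Dnmt1 (1.76 ± 0.17), Ezh2 (1.62 ± 0.15), Suz12 (0.98 ± 0.13) and Eed (0.64 ± 0.11). Each of the 6 had every X36 liver above every X28 liver, a separation for which no share of all genes is given. Under scaling to the same median Eed was not called (0.33). Replicate 3 of X28 stood below its partners, with Uhrf1 at 0.313 RPKM against 1.15 and 1.00, Hells at 0.116 against 0.550 and 0.565, and summed S-phase genes at 16.8 RPKM against 47.2 and 44.7.

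From X36 (ZT14) to X44 (ZT22) the genes parted, and time after PH and hour of the day cannot be told apart in this step. Uhrf1 went from a mean of 18.7 to livers at 5.8, 4.8 and 5.21 RPKM and was called lower (-1.71 ± 0.28, adjusted p = 4.48e-06), and Dnmt3b was called higher (1.01 ± 0.15), where 9.52% of all genes were called. Hells (-0.60, adjusted p = 0.0763) and Ezh2 (0.50, adjusted p = 0.0138) pointed in opposite directions without being called, although Hells was called lower under scaling to the same median (-0.72, adjusted p = 0.0226), and Dnmt1 was at -0.19 (adjusted p = 0.526). From X44 to X48 Hells was called lower (-1.01 ± 0.25, adjusted p = 0.0484), where 0.24% of all genes were, but the call was lost without any one of replicates 1 to 4 (adjusted p = 0.0701 to 1). From X48 to X72 none of the 10 was called by limma, with 5.96% of all genes called.

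Against C0, 6 of the 10 were called at X44, X48 and X72 alike, each of them higher: Uhrf1, Hells, Dnmt1, Ezh2, Suz12 and Eed. The shares of all genes called were 39.2%, 38.1% and 33.2%, and those called higher 30.8%, 30.4% and 26.6%. Ezh2 was at 5.47, 3.86 and 3.15 RPKM in X44 and 2.23, 2.1 and 2.18 RPKM in X72, all above C0 (2.50 ± 0.14 and 1.66 ± 0.14). Suz12 was at 13.1, 10.7 and 8.64 RPKM and Eed at 9.34, 8.62 and 7.71 RPKM in X44, and replicate 1 was the highest of both. Scaled to the same median, Eed was not called at X44 (0.36), and neither Eed nor Suz12 at X48 (0.22 and 0.45) or X72 (0.28 and 0.33), while Tet2 was called lower at X44 (-0.59, adjusted p = 0.00119) and X48 (-0.54, adjusted p = 0.000371).

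Between 72 h and 1 week 5 of the 10 were called lower, where 16.3% of all genes were called and 12.2% called lower: Uhrf1 (-1.41 ± 0.33), Hells (-1.25 ± 0.27), Ezh2 (-1.24 ± 0.17), Dnmt1 (-0.70 ± 0.20) and Eed (-0.56 ± 0.13). Every X1W liver was below every X72 liver for these 5, again without a share of all genes to set beside it. Eed was not called under the same scaling (-0.40). Dnmt1 lost its call without replicate 1 or 3 (adjusted p = 0.0908 and 0.0598), and Eed without replicate 1 (adjusted p = 0.0517). At 1 week Uhrf1, at 0.589, 0.211 and 0.64 RPKM, and Dnmt1, at 2.1, 1.74 and 2.28 RPKM, were still called above C0 (0.98 ± 0.27 and 0.55 ± 0.16), where 16.9% of all genes were called. For Uhrf1 replicate 2 lay within the C0 range, and Dnmt1 was not called under scaling (0.36, adjusted p = 0.0535). Without replicate 3 neither was called (adjusted p = 0.079 for Uhrf1 and 0.0991 for Dnmt1). At 4 weeks 0 of the 10 were called by limma against C0, with 5.62% of all genes called, and 0 against the unoperated C4W livers, with 0.065% called. There Uhrf1 was at 0.142 and 0.101 RPKM in X4W and 0.0977 and 0.0482 RPKM in C4W, and Ezh2 had the lowest adjusted p of the 10 (0.58 ± 0.21, adjusted p = 0.971), with 2 livers in each group.

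At 20 h after surgery, before the steep rise, 2 of the 10 were called in X20 against S20, both higher, with 7.11% of all genes called. They were Uhrf1 and Hells. Uhrf1 was at 0.0641, 0.159 and the lowest value of the table in S20, with no read in replicate 3, and at 1.15, 0.829, 0.762, 0.312, 0.0543 and 0.0483 RPKM in X20 (1.04 ± 0.28, adjusted p = 0.00907). Hells was at 0.0853, 0.101 and 0.0453 RPKM in S20 and 0.904, 0.512, 0.504, 0.323, 0.0825 and 0.0741 RPKM in X20 (0.85 ± 0.24, adjusted p = 0.0115). For both genes X20 replicates 5 and 6 lay within the S20 range, and the groups overlapped. The SE and adjusted p use a spread shared by all 19 groups. With limma fitted on X20 and S20 only, neither gene was called (adjusted p = 0.259 for Uhrf1 and 0.214 for Hells).

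The call at 20 h rested on X20 replicates 1 to 3. With these alone the log2 fold change was 1.86 for Uhrf1 (adjusted p = 9.14e-06) and 1.42 for Hells (adjusted p = 0.000118), and Dnmt1 was called too (0.60, adjusted p = 0.0157). With replicates 4 to 6 alone the values were 0.22 for Uhrf1 (adjusted p = 0.659), 0.28 for Hells (adjusted p = 0.529) and 0.12 for Dnmt1 (adjusted p = 0.754). The summed S-phase genes were at 35.7 to 45.2 RPKM in replicates 1 to 3 and at 26.0, 14.0 and 14.5 RPKM in replicates 4 to 6, against 12.1 to 14.7 in S20. X20 came from the first and second periods and S20 from the second only, and the part of the period in these values was not tested. Leaving out replicate 1 or replicate 3 of every group ended both calls, with an adjusted p of 0.188 and 0.178 for Uhrf1 and 0.168 and 0.113 for Hells. Leaving out replicate 2 ended that of Hells (adjusted p = 0.0627).

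**Figure D4:**
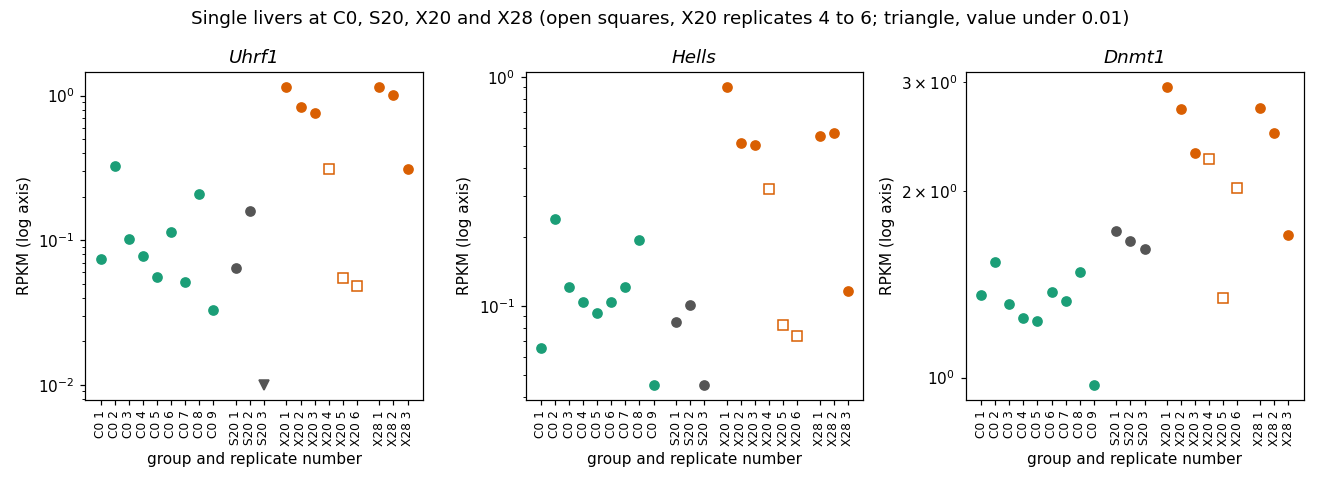
RPKM on a log axis of Uhrf1, Hells and Dnmt1 in each liver of C0, S20, X20 and X28, labelled by replicate number. Open squares are X20 replicates 4 to 6, of which 5 and 6 sit among the C0 and S20 livers for Uhrf1 and Hells, and replicate 3 of X28 is the lowest of its group.

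For 5 of the 10 the PH against sham difference was larger at 48 h than at 20 h when that difference was itself tested, where 13.2% of all genes were called. The difference in log2 fold change was 1.94 ± 0.41 for Uhrf1, 1.75 ± 0.21 for Ezh2, 1.20 ± 0.34 for Hells, 1.13 ± 0.25 for Dnmt1 and 0.52 ± 0.18 for Suz12. The adjusted p ran from 1.09e-09 for Ezh2 to 0.0451 for Suz12. Hells and Suz12 were not called under scaling to the same median (adjusted p = 0.0528 and 0.695) or without the replicate 5 livers (adjusted p = 0.0735 and 0.177). Suz12 also lost its call without replicate 2, 3, 4 or 6 (adjusted p = 0.0537 to 0.157). With replicates 1 to 3 alone of the groups of 6 livers the differences were 1.65 for Ezh2, 1.12 for Uhrf1 and 0.90 for Dnmt1, all called, and 0.63 for Hells (adjusted p = 0.225) and 0.34 for Suz12 (adjusted p = 0.284), not called. With replicates 4 to 6 alone all 5 were called, with Uhrf1 at 2.76 and Hells at 1.77. X48 and S48 came from the first period, S20 from the second and X20 from both. Time and period can thus not be told apart in this difference.

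At 1, 4 and 10 h none of the 10 was called by limma between PH and sham, where 0.65%, 8.64% and 7.02% of all genes were called. The smallest adjusted p at 10 h was 0.169, for Dnmt1 (0.37 ± 0.17), and at 4 h 0.145, for Tet2 (0.42 ± 0.19). At 1 h the 2 sets of replicates differed: with replicates 1 to 3 alone Dnmt3a (0.58), Tet2 (0.76) and Tet3 (0.65) were called higher in X1, and with replicates 4 to 6 alone none was (-0.15, -0.01 and -0.04). S1 replicates 1 to 3 were low for these genes, with Tet3 at 0.516, 0.541 and 0.636 RPKM against 1.16, 0.859 and 0.848 RPKM in replicates 4 to 6, and the cause was not tested.

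Against C0, Dnmt1 was the first of the maintenance genes to be called after PH, from 10 h on. At X10, 4 of the 10 were higher, with 36.4% of all genes called and 21.2% called higher: Dnmt1 (0.74 ± 0.13), Dnmt3a (0.67 ± 0.09), Suz12 (0.57 ± 0.10) and Eed (0.54 ± 0.09). Dnmt1 was at 2.8, 2.52, 2.19, 2.3, 1.88 and 2.51 RPKM in X10, all above C0, and at 1.64, 1.58 and 2.12 RPKM in S10. Under scaling Suz12 (0.36) and Eed (0.33) were not called, nor at X20 Dnmt1 (0.45) and Dnmt3b (0.41). At X20 4 were higher, Uhrf1 (0.87), Hells (0.68), Dnmt1 (0.66) and Dnmt3b (0.60), with 24.1% of all genes called. With X20 replicates 4 to 6 alone none of these 4 passed the limit, at 0.06, 0.11, 0.42 and 0.50, and with replicates 1 to 3 alone Suz12 (0.55) and Eed (0.52) did too. At X28 3 were higher, Uhrf1 (1.48), Hells (0.76) and Dnmt1 (0.69), with 24.9% called. Dnmt3b at X28 was just short of the limit on the lower side (-0.49, adjusted p = 0.00288) and past it under scaling to the same median (-0.54). At X1 1 was called, Dnmt3b, which was lower (-0.54, or -0.50 and not called without replicate 2), with 13.5% of all genes called, and at X4 none was by limma, with 38.2%, where Dnmt3a came to -0.39 (adjusted p = 0.00259) and Ezh2 to 0.39 (adjusted p = 0.0143).

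Dnmt3b, one of the de novo methyltransferases, differed between hours of collection in both operated arms. It was highest in the groups taken at ZT22, at 0.862, 1.09 and 1.19 RPKM in S20, 1.25, 1.27, 1.01, 1.06, 0.656 and 1.35 RPKM in X20 and 0.87, 0.843 and 0.947 RPKM in X44. Means were low in X36 at ZT14, at 0.320 RPKM, and at ZT3 and ZT6, at 0.330 to 0.470 RPKM. Livers of X28 were at 0.346, 0.329 and 0.456 RPKM and those of C4 at 0.225, 0.514 and 0.325 RPKM. Every ZT22 liver, the lowest being replicate 5 of X20, lay above every liver of the ZT3, ZT6 and ZT14 groups. The other hours were mixed. The means at ZT2 ran from 0.452 RPKM in S48, within the range of ZT3 and ZT6, to 0.859 RPKM in X72. Those at ZT12 were 0.473 RPKM in X10 and 0.598 RPKM in S10. X72 was at 0.705, 0.888 and 0.982 RPKM, and X1W and X4W, whose hour is not stated, had means of 0.848 and 0.862 RPKM against 0.641 RPKM in C4W.

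The steps around ZT22, other than X28 against X20, were chosen for testing after the levels had been seen. Dnmt3b rose from 10 to 20 h after PH (0.89 ± 0.12) and after sham (0.61 ± 0.17) and was lower in S48 than in S20 (-0.88 ± 0.17) and in X28 than in X20 (-1.08 ± 0.15, adjusted p = 1.53e-07). Between groups of the same hour the values were -0.22 ± 0.15 for X44 against X20 (adjusted p = 0.284) and -0.14 ± 0.17 for X28 against X4 (adjusted p = 0.543). X20 against S20 gave 0.04 ± 0.15 (adjusted p = 0.914). S48 and S20 came from different periods, so time and period cannot be told apart there, and the sham step from 10 to 20 h lost its call without replicate 2 or 3 (adjusted p = 0.121 and 0.0602). Of the 10 genes, 3 were called in X20 against X10 (Uhrf1 and Hells as well), with 13.3% of all genes called, 1 in S20 against S10 (10.6%) and 1 in S48 against S20 (4.03%). In X28 against X20, 2 were called, with Tet2 (-0.59 ± 0.19) also lower (10.3%), a call lost under scaling (-0.46) and without replicate 1, 2 or 3 (adjusted p = 0.118 to 0.136). Hells in X20 against X10 was not called without replicate 1 or 3 (adjusted p = 0.126 and 0.0527).

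At the same hour of the day other members differed. In X44 against X20, both at ZT22, 5 of the 10 were called higher, with 16.1% of all genes called: Uhrf1 (3.07), Hells (2.36), Ezh2 (2.27), Dnmt1 (1.60) and Suz12 (0.91). Under scaling to the same median Tet2 was called lower there (-0.59, adjusted p = 0.00496). In X28 against X4, both at ZT6, 4 were higher, with 28.3% called: Uhrf1 (1.64), Hells (1.13), Dnmt3a (0.81) and Dnmt1 (0.77).

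**Figure D5:**
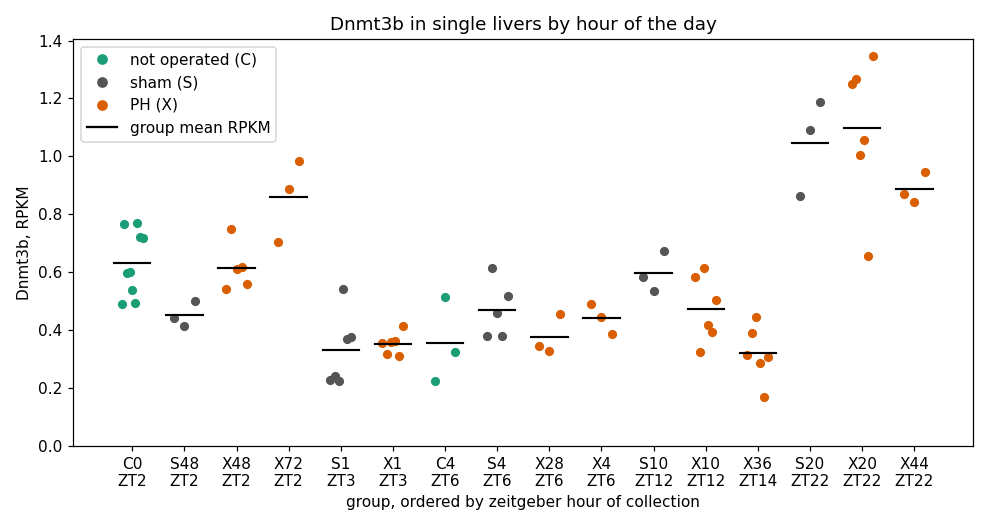
Dnmt3b in every liver of the groups with a stated hour, in RPKM from 0, ordered by zeitgeber hour along the x axis. Points are livers and bars are means; the S20, X20 and X44 means, all at ZT22, are 1.05, 1.10 and 0.887 RPKM.

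Some of the genes differed from C0 in sham livers too, but the share called was near or below that of all genes at each time. Against C0, 1 was called at S1, Dnmt3b lower (-0.62 ± 0.11, 7.77% of all genes called), 2 at S4, Ezh2 higher (0.52 ± 0.12) and Tet2 lower (-0.59 ± 0.15, 34.4%), and 2 at S10, Dnmt3a (0.63 ± 0.11) and Tet3 (0.54 ± 0.13) higher (29.1%). The S1 call was lost with replicates 4 to 6 alone (-0.38), and that of Ezh2 at S4 without replicate 5 or 9 (0.47 and 0.48). Under scaling to the same median neither S10 call stood (0.47 for Dnmt3a and 0.35 for Tet3), and Tet3 also fell short without replicate 3 (0.48). At S20 1 was called, Dnmt3b higher (0.56 ± 0.14, 12.1%), a call lost under that scaling (0.45) and without replicate 3 (adjusted p = 0.0534), and at S48 none was by limma (8.88%), where the smallest adjusted p was 0.0913, for Dnmt3b. Dnmt3a in S10, at 1.15, 1.03 and 1.25 RPKM, was as high as in X10, at 1.22, 1.21, 1.21, 1.11, 1.03 and 1.27 RPKM, both at ZT12 (X10 against S10, 0.03 ± 0.12, adjusted p = 0.927). The Tet2 call at S4 was lost against C0 replicates 1 to 3 alone, the low ones (-0.12, adjusted p = 0.585).

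In unoperated liver 4 h later in the day, C4 against C0, 1 of the 10 was called, Dnmt3b lower (-0.56 ± 0.14, adjusted p = 0.00357), with 7.89% of all genes called. Its C4 livers were at 0.225, 0.514 and 0.325 RPKM, the second within the C0 range, and without the replicate 1 livers the change was -0.43 (adjusted p = 0.096). Against C4, taken at the same hour, 4 of the 10 were lower in S4, with 43.3% of all genes called and 31% called lower: Tet2 (-0.79 ± 0.19), Dnmt3a (-0.73 ± 0.12), Tet3 (-0.66 ± 0.14) and Dnmt1 (-0.52 ± 0.18). Tet3 was at 0.738, 0.747, 0.987, 0.872 and 0.995 RPKM in S4 and 1.41, 1.42 and 1.71 RPKM in C4, and Dnmt3a at 0.361, 0.35, 0.455, 0.452 and 0.465 RPKM and 0.724, 0.882 and 0.957 RPKM. No S4 liver reached C4 for these genes. C4 came from the third collection period and S4 from the first and second, so sham surgery and period cannot be told apart in this comparison. Dnmt1 lost its call without replicate 2 or 4 (-0.41 and -0.47). The share of members called was near that of all genes, and under scaling to the same median, where the middle of all genes moved by -0.175, only Dnmt3a (-0.58) and Tet2 (-0.65) were called. Markers of other cells moved in the same comparison: 6 of 6 stellate, 6 of 8 lymphocyte, 3 of 8 macrophage and 2 of 6 endothelial genes were lower and 3 of 6 neutrophil genes higher. The stellate sum was 73.5 to 86.4 RPKM in C4 and 30.9 to 49.8 RPKM in S4, the lymphocyte sum 3.26 to 7.12 and 0.661 to 1.82 RPKM, and their part in the lower values was not tested.

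Other genes of these pathways were read in X48 against S48 beside the same background of 27.2%. Calls in this and the following lists were not repeated under scaling to the same median. That scaling ended the calls of Suz12, Eed and Dnmt3a in this comparison. Of 13 tested genes that read or repair methylated DNA or assist its enzymes, 5 were called higher and 0 lower, with a median of 0.429: Uhrf2, a relative of Uhrf1 (1.04 ± 0.12), the glycosylases Mbd4 (1.00 ± 0.15) and Tdg (0.82 ± 0.13), Cdca7, a partner of Hells (0.80 ± 0.25), and Mbd3 (0.63 ± 0.12). Dnmt3l and Tet1 were not tested, with means of 0 and 0.00951 RPKM in X48. Cdca7 was also higher at X36 against C0 (2.67 ± 0.18), with means of 3.78 and 0.372 RPKM.

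Of 8 other PRC2 genes 2 were called higher and 0 lower (median 0.382), the histone binding subunit Rbbp7 (1.00 ± 0.10) and the accessory factor Mtf2 (0.70 ± 0.15). Ezh1, the second catalytic subunit, was at means of 1.72 RPKM in X48 and 1.48 RPKM in S48 (0.19 ± 0.11, adjusted p = 0.183), so Ezh2 was at 0.498 RPKM below it after sham and at 2.97 RPKM above it after PH. Phf1 was the only one of the 8 called lower at X36 (-0.67 ± 0.13).

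Of 20 genes of Polycomb repressive complex 1, 3 were called higher and 0 lower (median 0.334), L3mbtl2 (1.32 ± 0.14), Cbx2 (0.56 ± 0.23) and Kdm2b (0.63 ± 0.13), the last named after its value was seen and below 1 RPKM. Of 5 genes that remove the H3K27 or H2AK119 marks or assist it 2 were higher, Asxl1 (0.99 ± 0.11) and Bap1 (0.52 ± 0.09). Of 17 genes that supply or use methyl groups 2 were higher and 1 lower (median -0.01): Mat2a, the S-adenosylmethionine synthetase of growing cells (1.31 ± 0.17), Mtr, methionine synthase (0.84 ± 0.18), and Gnmt, which uses up S-adenosylmethionine (-0.93 ± 0.19, with means of 355 and 657 RPKM).

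The genes whose group means ran most like the members' were counted by Pearson's r over the 19 groups, among 10509 protein-coding genes. For Uhrf1 they were Dtl (0.991), Hells (0.991) and Cdc6 (0.985), for Hells Pole2 (0.992), Uhrf1 (0.991) and Mms22l (0.990), and for Dnmt1 Skp2 (0.986), Tubgcp2 (0.984) and Wdr76 (0.981). For Ezh2 they were Nup107 (0.981), Gen1 (0.970) and Xrcc2 (0.970), for Suz12 Eri1 (0.975), Whsc1 (0.969) and Lin54 (0.961), and for Eed Uba2 (0.949), Psat1 (0.945) and Mdm2 (0.941). For the genes that did not peak at X36 or X44 the highest r was lower, though for Dnmt3a (0.937, Ralgps2) it was little below that of Eed. It was 0.912 for Tet2 (Aasdh), 0.898 for Tet3 (Plekha5) and 0.840 for Dnmt3b (D3Ertd254e). These values describe 19 means that share livers, depth and hours, and they carry no test.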

How the data were processed

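The authors sequenced strand-specific poly(A) libraries of single livers, aligned the reads to mm9 with TopHat2 2.0.13 (using Bowtie2 and SAMtools 0.1.19), counted them with featureCounts and deposited log2 RPKM values. The deposited table had 84 columns of values, of which 80 matched a labelled sample and 4 were not used, and 7 of 87 labelled samples, the 60 h post-PH group among them, were not analysed here. Values at the lowest entry (-14.29, 52.9% of all) were read as no reads. Depth was estimated from RPKM and exon length, and rests on that estimate.

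Genes above -1.5 log2 RPKM in at least 1 library were kept. Groups came from the sample labels. The replicates are separate livers collected in 3 periods, with mice operated 3 at a time. The replicate numbers are not tied to the periods in the sources used here. limma 3.58.1 (R 4.3.3, Python 3.11.15) was fitted to log2(RPKM + 0.25) over all 19 groups with a mean-variance trend, and p-values were Benjamini-Hochberg adjusted within each comparison. Calls needed an adjusted p under 0.05 and a log2 fold change beyond 0.5. The scripts were tested on simulated data. All 10 members were named in every comparison, and of other lists those with the largest change in X48 against S48. The members and lists were chosen with earlier results of these data known. Alternatives covered the pseudocount (0.1 and 1), the filter, scaling, a replicate block and left-out livers. RefSeq promoters were matched by symbol.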

Additional observations from a re-analysis of the deposited data

Results flagged for a closer look

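Within groups of 4 to 10 livers, 5 of 80 gene and group pairs held a liver far from the others on the log2 RPKM scale, where chance gives about 1 in 20. Dnmt1 in C0 replicate 9 was at -0.0377, with the nearest liver at 0.31. Uhrf1 in X36 replicate 2 was at 3.09, with the nearest at 4.08. Ezh2 in X1 replicate 4 was at -1.96, with the nearest at -1.41. Suz12 in S1 replicate 1 was at 1.91 (nearest 2.22), and Suz12 in X10 replicate 6 was at 2.40 (nearest 2.63).

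The PH against sham difference was larger at 48 h than at 20 h for 5 genes, by a limma test of the difference itself. The gain in log2 fold change was 1.94 for Uhrf1, 1.75 for Ezh2, 1.20 for Hells, 1.13 for Dnmt1 and 0.52 for Suz12. The adjusted p-values (Benjamini-Hochberg) were 0.000273, 1.09e-09, 0.00967, 0.00055 and 0.0451 in that order. The call of Suz12 was lost with log2(RPKM + 1), without the filter, under either scaling, without replicate 2, 3, 4, 5 or 6 and with replicates 1 to 3 alone of the groups of 6 livers. That of Hells was lost under either scaling, without replicate 5, with replicates 1 to 3 alone (0.63, adjusted p = 0.225) and fitted on the compared groups only (adjusted p = 0.0939). The 20 h and 48 h groups differed in collection period, so time and period cannot be told apart in these differences.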

How the results depend on the processing

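Of the counts of called members, 176 kept within 1.5 times their main value and 24 did not. No gene called in the main fit or in the alternative changed sign between them. Genes called in neither sometimes did, such as Tet3 in X36 against C0 (-0.22 with replicates 1 to 3 alone and 0.29 with replicates 4 to 6 alone). With log2(RPKM + 1), 0 members were called at 20 h (2 in the report), in the sham course (5), in C4 against C0 (1) and in S4 against C4 (4), since this pseudocount shrinks low genes. Scaled to the same median, 4 were called at 48 h (7), 2 in S4 against C4 and 3 in the 48 h minus 20 h difference (5). Centring on the median log2 value, chosen after seeing the data, gave 4 at 48 h, 2 in the sham course and 3 in the difference. Leaving out each replicate number in turn gave 0 to 2 at 20 h, 0 to 1 at 4 h, 0 to 1 in C4 against C0 and 3 to 6 in the difference. With replicates 1 to 3 alone of the groups of 6 livers, 3 were called at 1 h and 3 in the difference, and with replicates 4 to 6 alone 0 at 20 h. C4 against C0 gave 2 with C0 replicates 1 to 3 alone and 0 with replicates 4 to 6 alone. Fitted on the compared groups only, 0 were called at 20 h and 0 in C4 against C0. The cause was not tested except where stated.

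Replicate numbers did not pair the livers, since correlations of same-numbered deviations ran from -0.186 to 0.273. With the replicate block 0 members were called in C4 against C0. Over all genes the block moved the calls from 1215 to 2767 there and from 4187 to 4305 in X48 against S48. Levels of Uhrf1 and Hells outside regenerating liver rest on few reads, which limits their fold changes.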
